A study of Mus musculus with 4 samples.

Results

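The genes described here encode 2 related neuropeptides, PACAP and VIP, and the receptors that bind them. The genes were taken by name: Adcyap1 (PACAP), Vip (VIP), Adcyap1r1 (the PAC1 receptor), Vipr1 (VPAC1) and Vipr2 (VPAC2). All 5 were on the array, by RefSeq accession, as 5 of 33269 features and 6 of 41174 probes. Adcyap1r1 had 2 probes and each of the others had 1. Of the 5 genes, 4 gave a signal well above background. Vipr2 did not in any tissue, dye or array.

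RNA came from brains of male C57BL/6J mice aged 9 weeks, 6 h after the middle cerebral artery was closed for good with a filament passed up the carotid artery. Ischemic core, healthy core, ischemic penumbra and healthy penumbra were compared on 4 arrays, each with ischemic RNA in one dye and healthy RNA of the same region in the other. The labels mark every sample as saline, injected into the ventricle right after the occlusion, and none of the samples used here is marked as given PACAP38. The core is the zone of deepest loss of flow and the penumbra the zone around it. Arrays 1 and 2 held the core and arrays 3 and 4 the penumbra. Ischemic RNA was in Cy5 on arrays 1 and 3 and in Cy3 on arrays 2 and 4. The series text gives 3 mice for each group and names animals of neurological grades G1 and G2. It does not say whether RNA was pooled, nor from which animals or hemisphere the healthy tissue was taken. Each dye-swapped pair was therefore counted as 1 replicate, the errors of ratios are the SD between its 2 arrays, and there is no test over animals. For a difference of the core and penumbra ratios, the error is the root of the summed squares of the 2 pair SDs. For levels, and for differences of levels between pieces, it is the SD over the 2 dyes.

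PACAP and VIP belong to the secretin family of peptides. PAC1 prefers PACAP, whereas VPAC1 and VPAC2 bind both peptides. All 3 receptors couple to the stimulatory G protein, which switches on adenylyl cyclase, and the cAMP made then acts through protein kinase A on CREB, a factor that binds the cAMP response element in target promoters. In the brain, Adcyap1 is transcribed in neurons of cortex, thalamus and hypothalamus among others, Vip marks a class of cortical interneurons, and PACAP is studied as a peptide that protects neurons in ischemia.

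The promoters of both peptide genes are shown because each held the same variant of the cAMP response element. The sequences are from RefSeq (GRCm38.p6, plus strand), 250 bases before to 50 after a start site, and all 5 genes had a window in the table. Adcyap1 spans chr17:93198245-93206541, and its second listed window is chr17:93198918-93199217. Vip spans chr10:5639193-5647617, and its window is chr10:5638968-5639267. Capitals mark TGACGTCT and TATAAA.
Adcyap1: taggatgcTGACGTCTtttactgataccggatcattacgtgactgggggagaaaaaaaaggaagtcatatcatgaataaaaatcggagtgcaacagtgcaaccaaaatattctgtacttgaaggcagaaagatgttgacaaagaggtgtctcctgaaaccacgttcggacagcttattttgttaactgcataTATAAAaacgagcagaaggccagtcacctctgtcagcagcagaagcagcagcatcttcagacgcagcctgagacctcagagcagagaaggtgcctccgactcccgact
Vip: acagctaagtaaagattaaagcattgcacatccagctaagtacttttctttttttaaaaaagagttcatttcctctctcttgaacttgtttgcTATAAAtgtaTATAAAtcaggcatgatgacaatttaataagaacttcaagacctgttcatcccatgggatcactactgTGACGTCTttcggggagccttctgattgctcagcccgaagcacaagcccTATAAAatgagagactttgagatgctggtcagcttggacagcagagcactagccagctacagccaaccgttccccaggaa
In Vip, TGACGTCT began at position -79 from the start site and the nearest TATAAA at -30. In Adcyap1 it began at -242 from this start site, with TATAAA at -58, and at -91 from the start site of the first listed window, chr17:93198767-93199066, which overlaps this one and held no TATAAA. The variant was spelled out after the windows had been read, and it occurred on either strand in 192 of 32544 distinct promoter windows (0.59%). It contains TGACGTC, found in 3.22% of windows, and TGACG, found in 20.9%. The full palindrome TGACGTCA, found in 1.8% of windows, was in none of the windows of the 5 genes. Neither TGANTCA (7.79% of windows) nor the CArG box (1.64%) matched in any of them. TATAAA was in 13.6% of all windows.

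The windows of the receptor genes had a higher GC content than those of the peptide genes. They lacked TGACGTC and TATAAA, as most windows do (3.22% and 13.6% held them). Adcyap1r1 (chr6:55451501-55501455), Vipr1 (chr9:121642716-121672954) and Vipr2 (chr12:116077420-116148637) held no TGACGTC and no TATAAA, and Vipr1 alone held TGACG, on the minus strand. Their windows had a GC content of 67.3% for Adcyap1r1, 73.7% for Vipr1 and 65.3% for Vipr2. Of all windows, 86.7%, 95.2% and 82.9% were at or below these values. The Adcyap1 windows had 39% and 45.7% and the Vip window 41.7%, against a median of 53% over all windows. A match describes letters only, and the arrays give no measure of binding.

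Across the series, the median spot gave 192 to 225.5 intensity units in the Cy3 channels and 284 to 310 in the Cy5 channels, over local backgrounds of 64 to 71, and 76.07% to 79.41% of spots exceeded background clearly. A gene was called by size where the mean log2 ratio was at least 1 (2-fold) and each array showed at least 1.5-fold in the same direction. In the core, 76 of 24527 features were called, all higher in ischemic tissue. In the penumbra, 60 of 24924 were called higher and 1 lower. All ratios are relative to the bulk of genes. Scaled to 10 spike-in control transcripts instead, core ratios were lower by 0.48 log2 and penumbra ratios by 0.46, and the calls were split into 31 higher and 30 lower in the core, and 29 higher and 41 lower in the penumbra. All directions below are relative to the bulk of genes: on the spike-in scale every core ratio between 0 and 0.48, and every penumbra ratio between 0 and 0.46, turns below 0, also where this is not repeated.

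None of the 5 genes was called in any comparison. That is 0 of 4 measured genes in the core, where 0.31% of all features were called, and 0 of 4 in the penumbra, where 0.245% were called. For the difference between the regions it was 0 of 4 against 0.0594%. With so few features called, a count of 0 among 4 genes is near the background and says nothing particular about them. The values of each gene follow, peptides first.

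Adcyap1 encodes the precursor of PACAP. Its normalized log2 level was 11.09 in Cy5 and 10.99 in Cy3 in ischemic core, against 10.44 and 10.27 in healthy core. In ischemic penumbra it was 10.69 in Cy5 and 10.63 in Cy3, against 10.45 and 10.31 in healthy penumbra. Both ischemic values lay above both healthy values in each region, and no signal was below 15.4 times its local background.

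The log2 ratio of Adcyap1, ischemic over healthy, was 0.82 and 0.55 on the core arrays and 0.39 and 0.18 on the penumbra arrays. The mean was 0.69 ± 0.19 in the core (1.61-fold) and 0.28 ± 0.15 in the penumbra (1.22-fold). Of all features measured in the core, 0.791% had a ratio as high or higher, and 7.02% did in the penumbra. Adcyap1 was thus higher in ischemic tissue on all 4 arrays but did not reach 2-fold. With the spike-in scaling it was 0.21 in the core and turned to -0.18 in the penumbra. In pieces of whole tissue, more cells of a type and more RNA in each cell cannot be told apart.

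**Figure D1:**
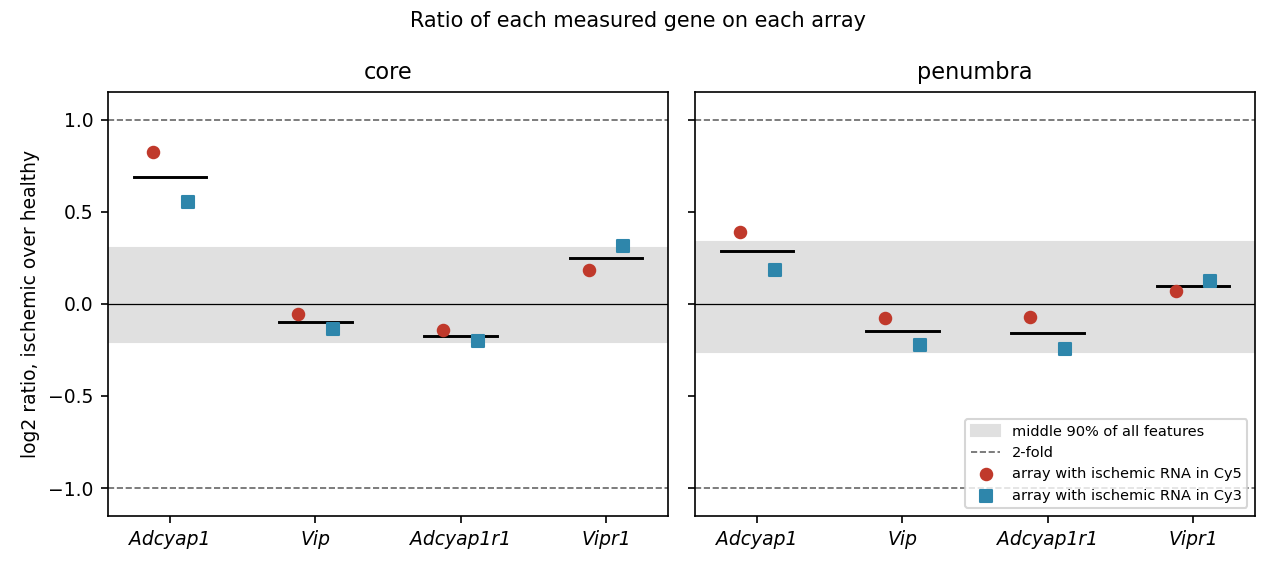
Log2 ratio of ischemic over healthy tissue (vertical axis) for the 4 measured genes in core (left) and penumbra (right). Circles are the array with ischemic RNA in Cy5, squares the array with it in Cy3, bars their mean, the grey band the middle 90% of all features and dashed lines 2-fold; the 4 Adcyap1 points, from 0.18 to 0.82, all lie above 0 and the core points lie above the band.

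A fit over arrays was an alternative to the size rule. With limma over the 4 arrays, whose p-values measure only the spread between arrays, Adcyap1 had an adjusted p of 0.0425 in the core, where 389 of 25245 features (1.54%) passed at any size. Its adjusted p was 0.194 in the penumbra, where 1.8% of features passed, and 1 for the difference of the regions, where 0.00792% did. Neither Vip, Adcyap1r1 nor Vipr1 passed in that limma fit, with adjusted p-values of 0.219 to 0.664 over both regions. With a dye coefficient in limma, 28.1% of all features passed in the core and 42.1% in the penumbra, among them Adcyap1 (adjusted p of 7.12e-07 and 0.00053) and Adcyap1r1 (0.0169 and 0.0188). Vipr1 passed in the core only in that limma fit (adjusted p of 0.00198, and 0.113 in the penumbra), and Vip in the penumbra only (0.0218, and 0.14 in the core). For the difference of the regions 7.1% of features passed, Adcyap1 with a limma adjusted p of 0.00348. Both fits treat the 2 arrays of a pair as separate samples, which the labels do not state. The fit with a dye coefficient leaves 1 residual degree of freedom. Its standard errors in the core were nearly alike for the 4 genes, 0.0463 to 0.0472, so its p-values measure little of a gene's own spread.

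The 2 core values of Adcyap1 lay above both penumbra values. The difference of the ratios, core minus penumbra, was 0.40 ± 0.24 log2, with the error combined from the SDs of both pairs. It was 0.44 between the arrays with ischemic RNA in Cy5 and 0.37 between those with it in Cy3. Of 25245 features, 0.721% had a difference as high or higher. It was below the 1 log2 asked for a call. Without core replicate 1 it was 0.27, and without core replicate 2 it was 0.54.

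The same difference can be read from the levels. Ischemic core minus ischemic penumbra was 0.40 in Cy5 and 0.36 in Cy3 for Adcyap1, a mean of 0.38 ± 0.02 (SD over the 2 dyes). Healthy core minus healthy penumbra was -0.01 and -0.04, a mean of -0.03 ± 0.02. The healthy pieces were thus near one another in Adcyap1, and the ischemic pieces were further apart. Of all features, 13.87% lay as far from 0 as Adcyap1 between ischemic pieces, and 87.45% did between healthy pieces. Centring each array on the 20 nearest spots, an alternative chosen after the data were seen, gave 0.27 for ischemic and -0.13 for healthy tissue. In these comparisons of pieces 0 of 4 genes were called, where 1.36% of features were called between ischemic pieces and 1.13% between healthy pieces.

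With levels centred within each dye, Adcyap1 ran from ischemic core (0.43 ± 0.02) to ischemic penumbra (0.05 ± 0.04), healthy penumbra (-0.23 ± 0.02) and healthy core (-0.26 ± 0.04). The last pair overlapped between dyes and each other step did not.

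**Figure D2:**
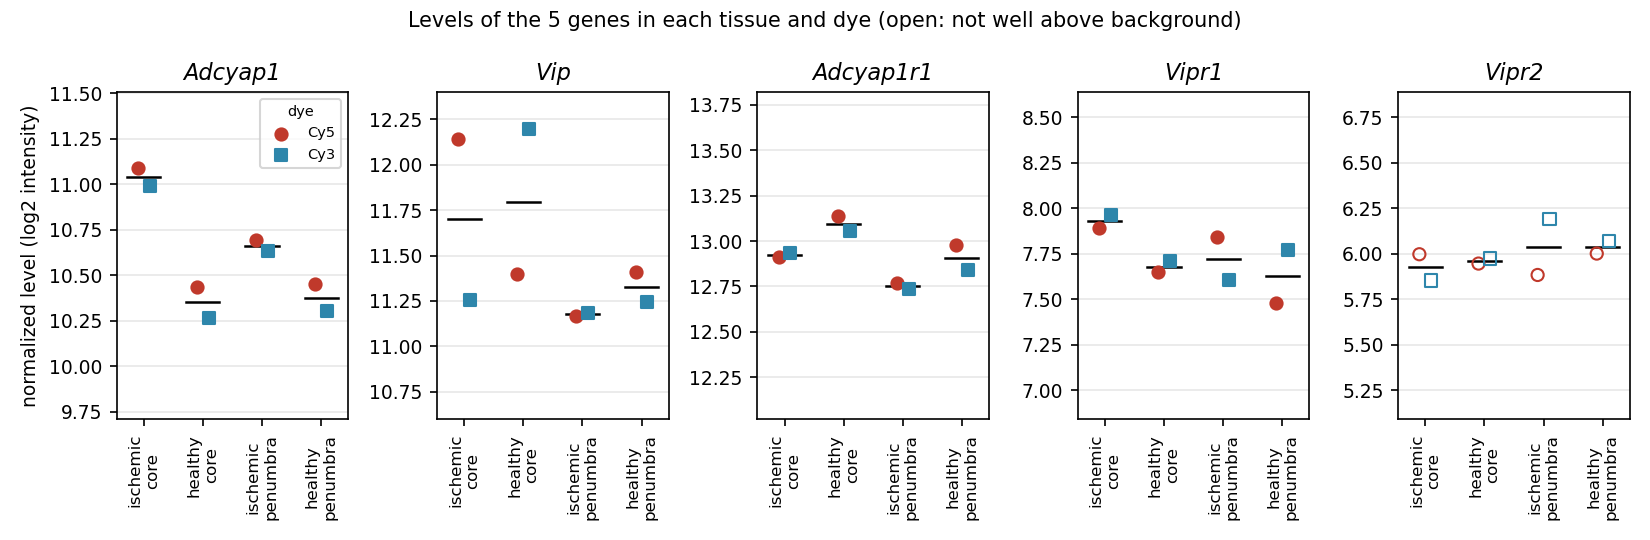
Normalized log2 intensity (vertical axis, of the same height in log2 units in every panel) of each gene in ischemic core, healthy core, ischemic penumbra and healthy penumbra. Circles are Cy5, squares Cy3 and bars their mean, and open symbols are not well above background; Adcyap1 is highest in ischemic core in both dyes, the Vip values of core array 1 (ischemic core Cy5, 12.14, and healthy core Cy3, 12.20) stand apart, and all Vipr2 symbols are open.

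Levels of cell type markers were read beside these values. Beside their counts of calls, 0.31% of all features were called in the core, all higher, and 0.241% were called higher in the penumbra. The T cell and neutrophil list had 6 of 8 genes on the array by symbol, and 2 of the 6 were called higher in each region, the calprotectin subunits S100a8 (2.39 ± 0.00 in the core, 1.82 ± 0.01 in the penumbra) and S100a9 (2.49 ± 0.06 and 1.88 ± 0.23). The other 4 were not called. Among them, the T cell genes Cd3e, Cd3d and Cd4 were at -0.07, 0.15 and 0.04 in the core and -0.05, 0.04 and -0.41 in the penumbra. No ratio is given for the fourth, the neutrophil gene Ngp, which lacked a clear signal in healthy tissue. The list's median was 0.36 and 0.08 (-0.12 and -0.38 with the spike-in scaling). The log2 of the list's summed level, to which each gene adds by its brightness, was 13.62 to 13.75 in ischemic core, against 11.41 to 11.50 in healthy core, and 13.29 to 13.67 in ischemic penumbra, against 11.81 to 11.95 in healthy penumbra. Of its genes, Ngp was not well above background in either healthy tissue, nor Cd3d in healthy penumbra. Thalamic and hypothalamic markers, from regions that transcribe Adcyap1, had a median ratio of -0.04 in the core (11 measured) and 0.19 in the penumbra (12 measured), where it turned to -0.27 with the spike-in scaling. Of these markers 1 was called, Prkcd, a protein kinase C, at 1.21 ± 0.11 in the penumbra, against -0.29 in the core, and it was not called with the spike-in scaling. On the same log2 scale they summed to 13.59 to 13.68 in ischemic core, against 13.70 to 13.85 in healthy core, and to 13.60 to 13.67 in ischemic penumbra, against 13.11 to 13.29 in healthy penumbra. Cortical excitatory markers had a median ratio of -0.07 in the core and -0.16 in the penumbra, with 0 of 9 called in each. Choroid plexus and ependymal markers (7 measured, 0 called) had a median ratio of 0.01 in the core, with 4 of 7 above 0, and 0.63 for penumbra, with 7 of 7 above 0 (0.17 with the spike-in scaling). Meningeal fibroblast markers (8 measured, 0 called) had -0.16 for core, with 1 of 8 above 0, and 0.46 for penumbra, with 8 of 8 above 0 (0.00 with the spike-in scaling). Striatal projection neuron markers (9 measured, 0 called) had 0.24 for core, with 7 of 9 above 0 (-0.24 with the spike-in scaling). For penumbra they had -0.12, with 3 of 9 above 0. The core ratio minus the penumbra ratio had a median of -0.68 for the choroid plexus list and -0.69 for the meningeal list, with 0 genes above 0 in either. It was -0.18 for the thalamic and hypothalamic list (1 of 12 above 0) and 0.31 for the striatal list (9 of 9). For cortical excitatory markers it was 0.19 (7 of 9), and for the T cell and neutrophil list 0.44 (5 of 6). The part of any of these cells in the Adcyap1 ratio was not tested.

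Vip encodes the VIP precursor. Its log2 ratio, ischemic over healthy, was -0.06 and -0.14 on the core arrays and -0.08 and -0.22 on the penumbra arrays. The means were -0.10 ± 0.06 in the core and -0.15 ± 0.10 in the penumbra, both inside the middle 90% of all features. The ratio was below 0 on all 4 arrays but small, and with the spike-in scaling it was -0.57 in the core and -0.61 in the penumbra, where the median of all features was -0.48 and -0.47. The core and penumbra ratios differed by 0.05 ± 0.12 log2, less than the error combined from both pairs.

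Levels of Vip between the pieces depended on 1 array. The log2 level was 12.14 in Cy5 and 11.26 in Cy3 in ischemic core, against 11.17 and 11.18 in ischemic penumbra. In healthy core it was 11.40 in Cy5 and 12.20 in Cy3, against 11.41 and 11.25 in healthy penumbra. The values of 12.14 and 12.20 were the 2 dyes of the same spot, on core array 1. Ischemic core minus ischemic penumbra was accordingly 0.97 in Cy5 and 0.07 in Cy3 (0.52 ± 0.63), and healthy core minus healthy penumbra was -0.01 in Cy5 and 0.95 in Cy3 (0.47 ± 0.68). The dyes thus disagreed by more than the mean in both comparisons, and no difference in Vip level between core and penumbra pieces can be stated. The ratios within an array use both dyes of one spot, and the shift of array 1, alike in both dyes, does not show in them.

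The spots around the Vip probe were compared between arrays. Compared were 29743 spots, of probes with 1 spot each that was well above background in both dyes on every array. Averaged over dyes, the Vip spot was brighter by 0.96 log2 on core array 1 than on penumbra array 3, which 0.353% of these spots reached. It was brighter by 0.03 on core array 2 than on penumbra array 4. The 20 nearest measured spots, all within 0.19 mm, had a median of 0.00 for arrays 1 and 3 and -0.27 for arrays 2 and 4. Of these 20 spots, 1 lay below -0.5 for arrays 1 and 3, against 4.05% of the 29743 spots, and 7 did for arrays 2 and 4, against 5.06%. The neighbours were thus level on array 1 and dim in part on array 2. Centring each array on those neighbours gave 0.65 log2 between ischemic pieces and 0.60 between healthy pieces for Vip. These are means over both dyes, without a spread. The Vip spot still stood further above its neighbours for arrays 1 and 3 (0.96 against 0.00) than for arrays 2 and 4 (0.03 against -0.27). No difference in Vip level between the pieces can be stated from them either. Local shifts over 0.5 log2 were found for 172 of 29743 spots (0.578%) on array 1, 158 (0.531%) on array 2 and 0 on arrays 3 and 4.

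**Figure D3:**
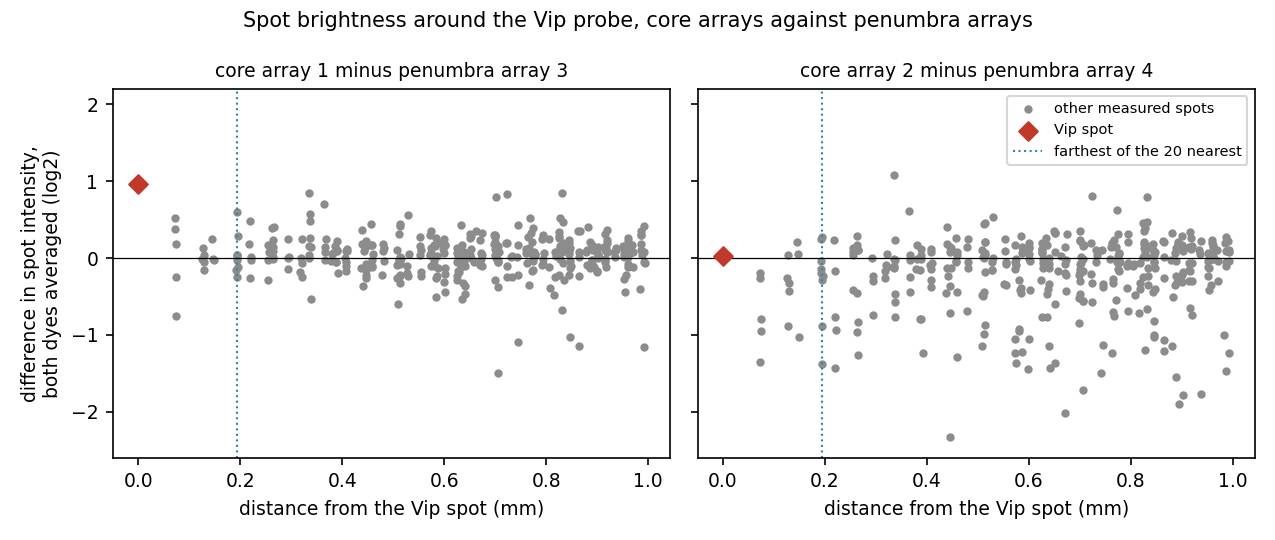
Difference in log2 spot intensity, both dyes averaged, between a core array and the penumbra array of the same dye orientation (vertical axis) against distance from the Vip spot in mm (horizontal axis). Each grey point is a measured spot within 1 mm and the diamond is the Vip spot; it stands at 0.96 above neighbours centred on 0.00 for arrays 1 and 3, and at 0.03 among partly dim neighbours (median -0.27) for arrays 2 and 4.

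Markers of cortical excitatory neurons, which share the cortex with Vip interneurons, were read beside the levels. All 9 were well above background, and the log2 of their summed level was 15.71 to 15.80 in ischemic core, against 14.88 to 15.09 in ischemic penumbra, and 15.77 to 15.89 in healthy core, against 15.17 to 15.28 in healthy penumbra. The list of 10 GABAergic interneuron markers includes Gad1, Gad2 and Slc32a1, which other GABAergic neurons also transcribe. The log2 of its summed level was 17.51 to 17.71 in ischemic core, against 17.60 to 17.84 in ischemic penumbra. In healthy core it was 17.48 to 17.70, against 17.58 to 17.87 in healthy penumbra. The list's median was 0.03 between ischemic pieces and 0.10 between healthy pieces, with 6 of 10 above 0 in each and 0 of 10 called. Its genes ran both ways, from Gad2 (-0.52) to Htr3a (0.73) between ischemic pieces and from Gad2 (-0.55) to Pvalb (0.89) between healthy pieces. These values do not give a level of interneurons alone. The part of either cell type in the Vip level was not tested.

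Adcyap1r1 encodes PAC1, the receptor with the highest preference for PACAP. By its brighter probe, its log2 ratio was -0.14 and -0.20 on the core arrays and -0.07 and -0.24 on the penumbra arrays, with means of -0.17 ± 0.04 and -0.16 ± 0.12. By its dimmer probe it was -0.02 and 0.01 on the core arrays, a mean of -0.01 ± 0.03, and 0.11 and 0.16 on the penumbra arrays, a mean of 0.14 ± 0.04. The probes thus had opposite signs in the penumbra on both arrays, and no direction is given for Adcyap1r1 there. Both probes match the same transcript accession, and both were well above background, the brighter at 70.4 to 168.6 times and the dimmer at 6.34 to 9.67 times its local background. The mean over probes was -0.09 for core and -0.01 for penumbra.

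By the brighter Adcyap1r1 probe, the log2 level was 12.91 in Cy5 and 12.93 in Cy3 in ischemic core, against 13.14 and 13.06 in healthy core. In ischemic penumbra it was 12.77 and 12.73, against 12.98 and 12.84 in healthy penumbra. Centred within dyes, healthy core was highest (0.18 ± 0.02) and ischemic penumbra lowest (-0.17 ± 0.02), with ischemic core and healthy penumbra between them and overlapping. By that probe, core minus penumbra was 0.17 ± 0.04 for ischemic and 0.19 ± 0.04 for healthy tissue, and the ratios of the regions differed by -0.02 ± 0.13. By the dimmer probe, ischemic core was at 9.03 in Cy5 and 9.05 in Cy3, against 9.15 and 9.09 in ischemic penumbra, and so ran the other way. With the mean over probes, core minus penumbra was 0.05 for ischemic and 0.13 for healthy tissue, and no order of the ischemic pieces is given for Adcyap1r1.

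Vipr1 encodes VPAC1, which binds VIP and PACAP alike. Its log2 ratio was 0.19 and 0.31 on the core arrays and 0.07 and 0.13 on the penumbra arrays, with means of 0.25 ± 0.09 (1.19-fold) and 0.10 ± 0.04 (1.07-fold). All 4 values were above 0 and none reached 1.5-fold. Of all features, 7.07% were as high or higher in the core and 26.4% in the penumbra. With the spike-in scaling both turned, to -0.23 for core and -0.37 for penumbra. The probe was dim, at 2.37 to 4.01 times its local background, and with Agilent's processed signals, to which no offset is added, its ratio was 0.35 for core and 0.18 for penumbra.

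The log2 level of Vipr1 was 7.89 in Cy5 and 7.97 in Cy3 in ischemic core, against 7.65 and 7.71 in healthy core. In ischemic penumbra it was 7.84 and 7.61, against 7.48 and 7.77 in healthy penumbra. Both values of ischemic core lay above those of the other tissues once centred within dyes (0.19 ± 0.02), and the other 3 tissues overlapped. Core minus penumbra was 0.21 ± 0.22 for ischemic and 0.05 ± 0.17 for healthy tissue, both within the SD over dyes.

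Vipr2 encodes VPAC2, the other receptor shared by both peptides. Its signal was 0.938 to 1.09 times the local background, and its spot was not well above background in any of the 8 combinations of tissue and dye. No ratio or level order is given for it, and the arrays do not show whether its transcript was absent.

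**Figure D4:**
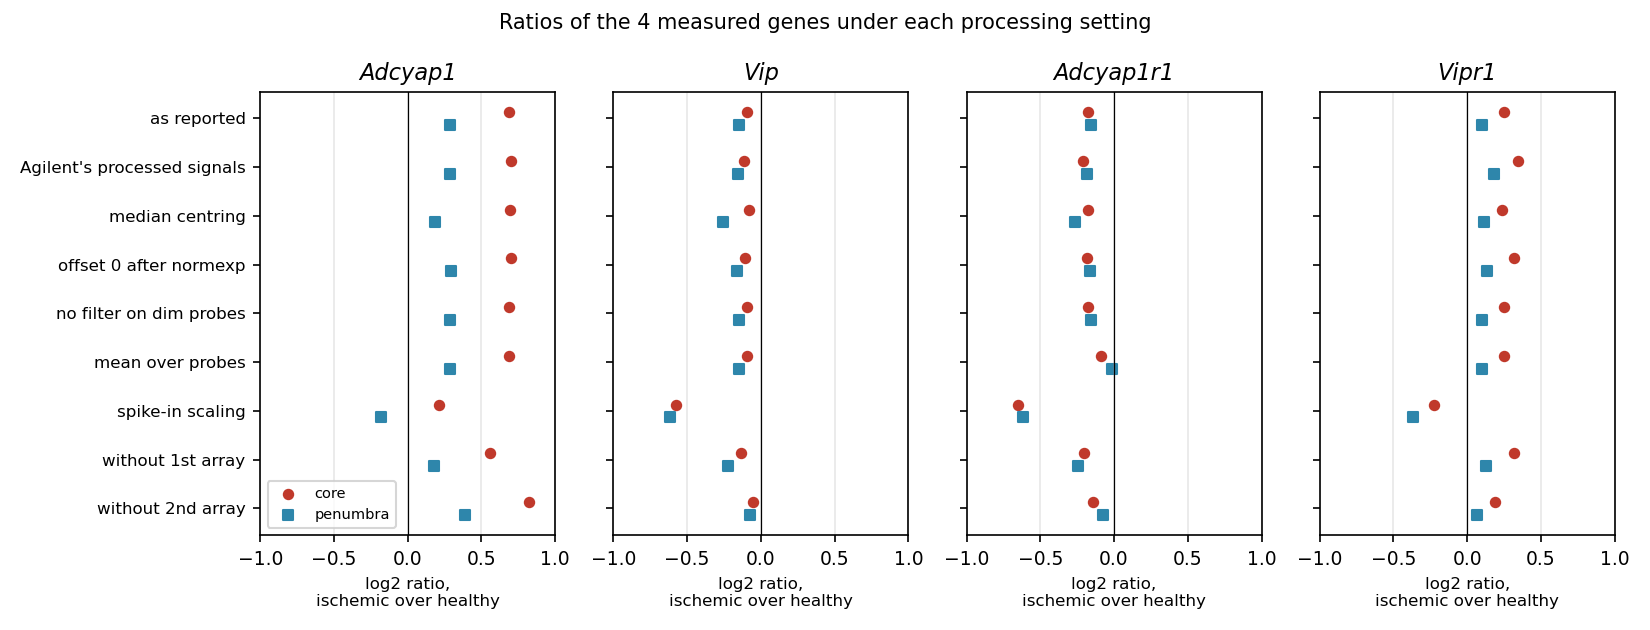
Log2 ratio of ischemic over healthy tissue (horizontal axis) for the 4 measured genes under each processing setting (rows), in core (circles) and penumbra (squares). Adcyap1 lies above 0 in every row but the spike-in scaling, where the penumbra value is -0.18, and the spike-in row lies lowest for every gene.

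Genes whose levels ran most like those of a member were found over the 8 values of tissue and dye, which share 4 arrays, so the correlations are descriptions. Among 4755 named genes with a comparable span, the closest to Adcyap1 was Hspb1, a small heat shock protein, with r = 0.997. Hspb1 had a mean ratio of 1.96 in the core and 0.81 in the penumbra. Next came P2ry2, a receptor for extracellular ATP and UTP (r = 0.994, ratios of 0.65 and 0.22), and Trib1, a pseudokinase (r = 0.994, ratios of 0.79 and 0.36). With local brightness centring Hspb1 stayed first at 0.99, followed by Ifitm6 and Prag1. For Vip the closest were Trhde, the peptidase that degrades TRH (r = 0.979), Medag (0.975) and Hoxa6 (0.963), and with local brightness centring Cideb, Acap3 and Nphp4 took these places. Centred within dyes, Vip stood at 0.61 and 0.73 in the 2 dyes of core array 1, and at -0.36 to -0.12 otherwise. Its correlations thus rest largely on brightness on that array and describe no likeness between tissues. No gene was sought for Adcyap1r1, Vipr1 and Vipr2, whose tissue means spanned less than 0.5 log2.

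Peptide precursors must be cut before they act. In the list of enzymes that process or degrade peptides, 9 of 10 were measured, with a median of 0.02 in the core and -0.04 in the penumbra, close to those of all features (-0.01 in each region). Pcsk1, the prohormone convertase that cuts neuropeptide precursors, had log2 ratios of 0.88 and 1.01 on the core arrays and 1.11 and 1.22 on the penumbra arrays. It was called higher in the penumbra, as 0.241% of all features were, at 1.17 ± 0.08, and at 0.95 ± 0.09 it fell just short of 2-fold in the core. Pcsk2, the second convertase of neurons, was at -0.13 ± 0.07 in core and -0.42 ± 0.24 in penumbra, neither of them called. The penumbra call of Pcsk1 ended with the spike-in scaling (0.70). In the core it passed with processed signals (1.00), without core replicate 1 (1.01) and with the mean over probes.

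Downstream, cAMP and CREB target genes had the highest median of the 10 pathway lists in both regions. Of 15 measured, 5 were called higher in the core, with a median of 0.57, and 5 in the penumbra, with a median of 0.41, against the 0.31% and 0.241% of all features called higher there. Fos, a subunit of AP-1, was at 3.34 ± 0.32 in core and 3.02 ± 0.31 in penumbra. Egr1, a zinc finger factor, had 1.68 ± 0.14 and 1.57 ± 0.09, and the nuclear receptor Nr4a1 had 1.44 ± 0.20 and 1.64 ± 0.10. Bdnf, a neurotrophin, had 1.24 ± 0.01 and 1.52 ± 0.05. The fifth was the phosphatase Dusp1 in the core (1.13 ± 0.23; 0.85 ± 0.41 in the penumbra, not called) and Pcsk1 in the penumbra. Dusp1 was not called without core replicate 1 (0.96) in the core, and it was called without penumbra replicate 4 (1.14) in the penumbra. These genes also respond to calcium and growth factor signals, and the list holds genes known from earlier results of these data to be high. With the spike-in scaling its median was 0.10 in the core, with 2 called, and -0.06 in the penumbra, with 4 called.

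The lists between receptor and target held no called gene in either region, which, with 0.31% and 0.245% of all features called, says nothing particular about them. G proteins and adenylyl cyclases (13 measured) had medians of -0.01 for core and -0.13 for penumbra, with extremes of Adcy8 at 0.34 ± 0.23 in the core and Adcy1 at -0.46 ± 0.31 in the penumbra, both calcium-stimulated cyclases. Protein kinase A subunits and other cAMP effectors (10 measured) had medians of -0.02 and -0.06. Phosphodiesterases that break down cAMP (13 measured) had 0.05 and -0.09. CREB, its relatives, coactivators and SIK kinases (10 measured) had 0.05 and 0.03, the highest being Sik1, a kinase that restrains CREB coactivators, at 0.60 ± 0.26 in the core and 0.31 ± 0.19 in the penumbra. Receptor activity-modifying proteins (3 measured) had 0.14 and 0.01, with Ramp2 at -0.38 ± 0.06 in the core and Ramp3 at 0.34 ± 0.01 in the core and 0.34 ± 0.05 in the penumbra. Other peptides of the family (3 measured) had -0.04 and 0.22, and other receptors of the family (3 measured) -0.02 and -0.02. Each of these medians was below 0 with the spike-in scaling.

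Among genes tied to PACAP or VIP action in earlier work (5 measured, 0 called), medians were 0.10 in the core and 0.00 in the penumbra. Il6, a cytokine, stood highest in the core, with 0.84 and 0.78 on the core arrays and -0.22 and -0.14 on the penumbra arrays. It was not well above background in healthy core on either array, and was at least 1.75-fold higher in ischemic core (normalized log2 means of 7.06 and 6.25). Agilent's processed signals and offset 0 called Il6 in the core, but over the same healthy signal not above background, so no fold is given for them. Adnp, a gene induced by VIP in cultured glia, was at -0.16 ± 0.06 in core and -0.17 ± 0.17 in penumbra.

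**Figure D5:**
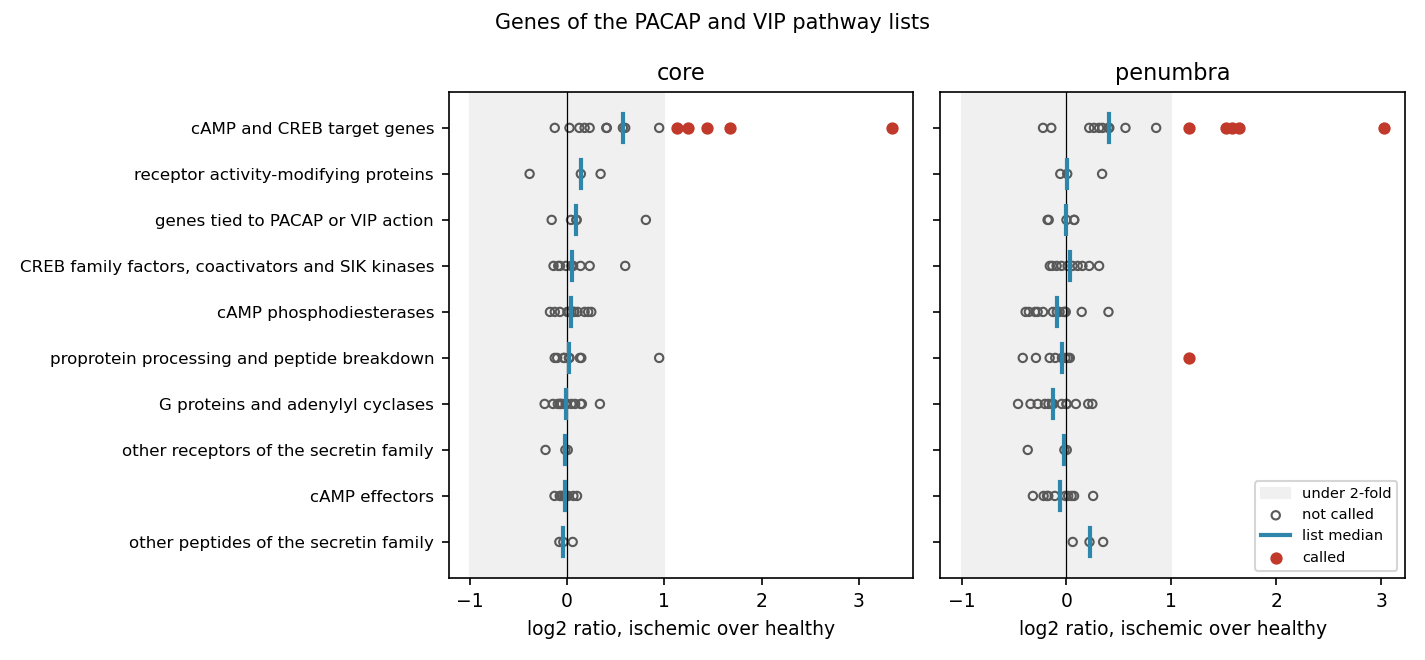
Log2 ratio of ischemic over healthy tissue (horizontal axis) for the measured genes of 10 pathway lists (rows), in core (left) and penumbra (right). Filled points were called, open points were not, and vertical bars are list medians; called genes occur in the cAMP and CREB target list, 5 in each region, and in the peptide processing list, 1 in the penumbra.

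Between the dissected pieces, some pathway genes differed in ischemic and healthy tissue alike. Adcy5, the adenylyl cyclase of striatal neurons, was lower in the core by a log2 difference of -1.40 ± 0.01 between ischemic pieces and -1.62 ± 0.07 between healthy pieces. Pde10a, a phosphodiesterase of the same neurons, had -1.42 ± 0.12 and -1.92 ± 0.08. Markers of striatal projection neurons had a median of -1.59 between ischemic pieces, with 7 of 9 called lower, against 0.913% of all features, and -1.96 between healthy pieces, with 8 of 9 called lower, against 0.82%. All 9 were well above background in each tissue, and the log2 of their summed level was 16.77 to 16.94 in ischemic core, against 17.61 to 18.34 in ischemic penumbra, and 16.39 to 16.70 in healthy core, against 17.74 to 18.16 in healthy penumbra. The pieces called core thus held less striatal transcript than those called penumbra, with and without ischemia, and its part in the member levels was not tested. Choroid plexus and ependymal markers differed more, with a median of -4.04 between ischemic pieces, 7 of 7 called lower, and -3.36 between healthy pieces, 6 of 7 called lower. The log2 of their summed level was 10.89 to 10.95 in ischemic core, against 15.12 to 15.22 in ischemic penumbra, and 10.91 to 10.94 in healthy core, against 14.46 to 14.55 in healthy penumbra. Ttr, the transthyretin of choroid plexus, was lowest of the list, at -6.46 ± 0.02 between healthy pieces, and it was not well above background in ischemic core. The part of these cells in the member levels was not tested either. Nr4a2, a nuclear receptor, was higher in the core by 1.04 ± 0.16 between ischemic and 1.17 ± 0.12 between healthy pieces.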

How the data were processed

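Intensity was read per spot and dye from the deposited scanner output of Agilent Feature Extraction 11.0.1.1 (version per the submitters' processing notes). A series table with log10 ratios, also deposited, equalled Agilent's processed Cy5 over processed Cy3 signal within 5e-06, with column medians of -0.0215, 0.00516, -0.0199 and -0.0115 for arrays 1 to 4. It was not used for the values reported. All arrays were on 1 slide, which leaves no slide or scan batch to test.

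Median signals had their background corrected by normexp (offset 50), and loess was run within arrays, in limma 3.58.1 (R 4.3.3), with control and outlier-marked spots at weight 0. Ratios were turned to ischemic over healthy and outlier-marked spots left out. Levels were single-channel values after loess and Aquantile, compared within dyes. A gene entered a comparison if, in 1 of its 2 tissues or both, its brightest probe was well above background on each array. Of 41174 probes, 23374 took a symbol from their accession (RefSeq table of GRCm38.p6). Calls used the size rule given above. For the difference, at least 1 log2 was asked, with both core arrays on one side of both penumbra arrays. Other steps ran in Python 3.11.15 (pandas 2.3.3, numpy 2.4.6, matplotlib 3.10.9). The calling steps were tested on simulated data.

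The genes, the pathway and marker lists, and the tests were chosen with earlier results of these data known. Named were all members, the called genes of each pathway list, extremes of some lists without a call, and the 3 genes with the highest Pearson r to a member. No extreme ratio was named for the cAMP effectors, the phosphodiesterases, or the other peptides and receptors of the family. Some genes outside this rule were named after their values were seen: Pcsk2, Adnp, the marker genes, and Adcy5, Pde10a and Nr4a2 for the pieces. Alternatives were processed signals, median centring, offset 0, no filter on dim probes, the mean over probes, quantile normalization over channels, a spike-in scaling, each array or dye left out, limma over arrays with and without a dye coefficient, and, chosen after the data were seen, local brightness centring.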

Additional observations from a re-analysis of the deposited data

How the results depend on the processing

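No member was called under any alternative of any comparison. Adcyap1 kept its direction in the core in 10 of 10 alternatives, with the lowest value, 0.21, from the spike-in scaling, and in the penumbra in all but that one (-0.18). With 1 array left out it was 0.55 to 0.82 in the core, 0.18 to 0.39 in the penumbra and 0.27 to 0.54 for the difference, which kept its direction in 12 of 12 alternatives. These counts include alternatives that could not turn the direction of Adcyap1. It had 1 probe, well above background, so dropping the filter, the mean over probes and both limma fits returned the main values. With 1 array left out, the value of a region is the ratio of its other array, already given above. Calls over all features were 76, 61, 15, 282 and 337 as reported (core, penumbra, difference, healthy pieces, ischemic pieces). With Agilent's processed signals they were 244, 219, 179, 860 and 1037, and with offset 0 they were 150, 115 and 56 for the first 3. With 1 array left out, 93 to 95 were called in the core, 78 to 86 in the penumbra and 24 to 35 for the difference. Limma over arrays called 2 for the difference at 1 log2 or more. Cy5 alone called 461 between healthy pieces and Cy3 alone 543 between ischemic pieces. By adjusted p alone, limma passed 389 in the core and 454 in the penumbra, against 7088 and 10627 with a dye coefficient. The cause of these shifts was not tested. Each array pairs ischemic with healthy RNA by its ratio, and core and penumbra arrays were set side by side only by dye orientation. No paired analysis was possible by replicate number because core arrays are numbered 1 and 2 and penumbra arrays 3 and 4. Signal over background limits Vipr1 and Vipr2, and the number of arrays limits every error.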

Other observations

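Among genes measured in the core that had a promoter window, 605 held TGACGTC in a window, with a median log2 ratio of 0.03 and 6 called higher (0.992%), beside 52 of 10952 (0.475%) with any window. In the penumbra, 5 of 609 such genes (0.821%) were called higher, beside 41 of 11066 (0.371%). For TGACGTCT, the variant in the peptide promoters, 1 of 92 genes (1.09%) was called higher in the core and 0 of 92 in the penumbra, with medians of 0.03 and -0.01. For TATAAA it was 14 of 1187 genes (1.18%) in the core and 12 of 1209 (0.993%) in the penumbra. These are counts without a test, and 0 of the 2 peptide genes that hold TGACGTCT is among the called.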
